A study of Mus musculus with 4 samples.

Results

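The 36 genes described here carry out and control cell division, from the helicase that opens DNA for copying to the kinases, motors and ubiquitin enzymes of mitosis. They are a list of known cell cycle genes given by symbol, and all 36 were found by symbol among the 55357 genes of the count matrices. Cells were read from the ipsilateral brain hemisphere of wild-type mice after ischemic stroke. Hydrogel microspheres had been placed in the infarct cavity on day 5 and tissue was taken on day 14. Each of the 4 groups was 1 library, and the number of animals in a library is not given in the sources used here. The group MAPS received the microspheres alone. The second group was UT EV+MAPS. The others, in order, were IL-1a TNFa C1q EV+MAPS and, as the last, IL-4 C1q EV+MAPS. These 3 received microspheres that carried astrocyte-derived extracellular vesicles (EV), each name giving the vesicle type as the labels do. The shorter names used from here are IL-1a/TNFa/C1q EV, IL-4/C1q EV and UT EV, or the 3 EV libraries for all of them. Where several values follow each other without names, they stand in the order in which the groups were introduced. All 4 groups carried a stroke and MAPS, and a healthy group was not analysed here. With 1 library per group there is no replicate check and no test: effects of a group and of its single library cannot be told apart. Every interval is a 95% counting interval (Clopper-Pearson for a share, conditional binomial for a ratio), and covers counting error only, since UMIs of 1 cell are not independent.

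A dividing cell copies its DNA in S phase, passes through G2 and separates its chromosomes in mitosis. E2F factors switch on the replication genes. The MuvB complex with B-Myb and FoxM1 switches on the mitotic genes, and it is the CHR element of their promoters that MuvB binds. The CCAAT box is a separate promoter element. Most cells of the adult brain do not divide. Known exceptions are the neuroblasts and their precursors of the subventricular zone, oligodendrocyte precursors, and, after injury, microglia and infiltrating leukocytes. In the 36 genes, the replication group holds the MCM helicase subunits Mcm2 to Mcm7, the sliding clamp Pcna, and the nucleotide-supply enzymes Tyms, Rrm1, Rrm2 and Tk1. The cyclins Ccna2, Ccnb1 and Ccnb2 activate the kinase Cdk1, to which the small protein Cks2 binds. Aurka, Aurkb and Plk1 are mitotic kinases, and Bub1 and Bub1b serve the spindle checkpoint. Cenpa, Cenpe and Cenpf belong to the centromere and kinetochore, while Tpx2, Nusap1, Prc1 and Kif11 build the spindle and its midzone. Birc5 and Cdca8 are subunits of the chromosomal passenger complex, Cdca3 promotes mitotic entry, and Ube2c is a ubiquitin-conjugating enzyme of the anaphase-promoting complex. Mki67 coats mitotic chromosomes, Top2a untangles DNA, Hmgb2 is a chromatin protein and Stmn1 destabilises microtubules and is also abundant in young neurons.

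Promoter sequence is shown first because most of the genes share a short motif there, the CCAAT box. Promoters came from a RefSeq table of build GRCm38.p6, matched by symbol, while the counts were made on GRCm39 per the submitters' processing notes. The table held 31 of the 36 genes, and Mcm4, Ccna2, Aurkb, Tpx2 and Stmn1 had no entry. In the 250 bases before the start site, searched on both strands, the CCAAT box (CCAAT) was present in 27 of the 31 (87.1%), against 34.5% of all 27025 genes in the table. It was present in 8 of the 10 matched replication genes and in 19 of the other 21. A CHR element (TTTGAA or TTCGAA) was present in 10 of 31 (32.3%) against 17.4% of all genes. An E2F letter pattern (the letters TTCCCGC, or else TTGGCGC, or else TTCGCGC, or else TTGCCGC) was present in 8 of 31 (25.8%) against 7.97%. Of the 10 matched replication genes, 5 had the E2F pattern and 2 (20.0%) the CHR, while of the other 21 genes 3 (14.3%) had the E2F pattern and 8 (38.1%) the CHR. The difference between the 2 groups was not tested, and a match is a description of letters, not of binding. A few promoters are printed as examples, 5′ to 3′ on the gene's own strand, each being the last 120 bases before the start site, with the matched letters of either strand in capitals.
Ccnb2, chr9:70421555-70421674, minus strand, with 3 CCAAT boxes: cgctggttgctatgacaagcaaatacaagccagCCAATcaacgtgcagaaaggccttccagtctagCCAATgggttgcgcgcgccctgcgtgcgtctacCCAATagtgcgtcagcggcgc
Cdk1, chr10:69352913-69353032, minus strand, with 2 CCAAT boxes (here as ATTGG) and 2 CHR elements: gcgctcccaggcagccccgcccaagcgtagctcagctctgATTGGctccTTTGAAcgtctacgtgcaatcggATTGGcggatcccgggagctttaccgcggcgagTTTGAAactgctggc
Top2a, chr11:99024190-99024309, minus strand, with 3 CCAAT boxes and 2 CHR elements: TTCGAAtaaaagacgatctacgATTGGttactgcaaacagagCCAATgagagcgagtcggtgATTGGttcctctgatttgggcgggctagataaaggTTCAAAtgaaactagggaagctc
Mcm6, chr1:128359706-128359825, minus strand, with 2 CCAAT boxes and 4 overlapping E2F matches in 2 places (TTGGCGC and GCGCGAA share letters): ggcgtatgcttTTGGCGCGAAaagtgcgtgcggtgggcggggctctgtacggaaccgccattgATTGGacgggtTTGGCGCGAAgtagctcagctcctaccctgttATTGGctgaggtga
The 3 mitotic promoters show CCAAT boxes spaced along the window, with CHR letters in Cdk1 and Top2a, and the Mcm6 promoter repeats its E2F letters.

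After filters and doublet removal, 53219 cells were kept. MAPS gave 13101 cells at a median of 4465 UMIs, and the EV libraries gave 12301 to 14218 cells at medians between 2422 and 2633 UMIs. MAPS stood apart from the others also in its mitochondrial share, with a median of 1.40% against 0.552% to 0.577%. The log2 ratio of the median gene, in CPM (UMIs of a gene scaled to a fixed total of UMIs) over all kept cells, was -1.24 to -1.04 in the EV libraries over MAPS, so that differences from MAPS are read against that shift and the main comparisons are those among the EV libraries. The shallowest deposited cell of IL-1a/TNFa/C1q EV held 1233 UMIs, while the other libraries reached down to 500. Libraries shared 43 to 64 cell barcodes per pair. Cells were put into classes by marker UMIs of 20 cell types, none of them a gene of the list. In the neuroblast-gated cells the markers of that class summed to 5370 to 10640 CPM against 389 to 543 CPM for the next class in the same library, a gap that the gate itself sets.

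A cell was counted as cycling when it held 3 or more UMIs summed over the mitotic set, which is Mki67, Top2a, Cdk1, Birc5 and Ube2c. There were 820 such cells in the 4 libraries among 53219 kept. They were deeper than other cells, with median UMIs of 10376 against 4402.5 in MAPS, 7493 against 2615.5 in UT EV, 5827.5 against 2511 with IL-1a/TNFa/C1q EV, and 6228.5 against 2406 with IL-4/C1q EV. At the threshold, 134, 36, 47 and 47 cells of the 4 libraries in order held exactly 2 mitotic-set UMIs, and 53, 19, 9 and 13 held exactly 3. Cells on both sides of the threshold form 1 range of counts, so cycling cells are not a cell type. Of the other 31 genes, the cycling cells detected a median of 20 per cell in MAPS and 14 to 16 in the EV libraries. These counts have no comparison with other cells at equal depth. Broad genes add to them, such as Hmgb2, which was detected in 38.4% of other cells.

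Over all classes and libraries pooled, the cycling cells held most of the RNA of the mitotic genes and a smaller part of that of the replication genes. These shares mix classes that differ in level and in their share of cycling cells. Of the cyclins, 93.7% of Ccna2 UMIs, 91.2% of Ccnb1 UMIs and 90.5% of Ccnb2 UMIs lay in these 820 cells. Of the kinases and checkpoint genes, the share ran from 77% for Bub1b to 93.8% for Bub1, with Plk1 at 86.4%, Aurkb at 82.2% and Aurka at 79.1%. The spindle and kinetochore genes Nusap1, Cenpf, Prc1, Tpx2, Cenpe and Kif11 lay between 80.4% and 92.4%. Cenpa, the histone of the centromere, was lower at 52.4%. Cdca3 was at 90.8% and Cdca8 at 81.9%. The 5 genes of the mitotic set defined the cells, so their own shares (Ube2c 94.7%, Birc5 94.0%, Mki67 91.7%, Top2a 88.1%, Cdk1 69.6%) are a description of the choice.

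Of the replication genes, pooled in the same way, the MCM subunits ranged from 20.1% for Mcm4 and 20.9% for Mcm3 to 50.5% for Mcm5. Rrm2, the regulated subunit of ribonucleotide reductase, had 84.0% of its UMIs in cycling cells, while Rrm1, its partner, had 37.2%. Tk1 had 72.5%, Tyms 41.9% and Pcna 17.9%. Outside the replication genes, Hmgb2 at 39.1% and Stmn1 at 17.1% were also broad, as was Cks2, which binds Cdk1, at 35.2%. The values by class were far apart. Cycling cells held 71.8% of Mcm4 UMIs among neuroblasts, 28.3% among T cells, 19.8% among monocytes and macrophages and 6.53% among microglia. For Pcna the shares were 71.8%, 36.1%, 24.3% and 4.54%. For Ccnb2 they were 97.1%, 96.7%, 91.9% and 74.4%, so within each of these classes Ccnb2 lay above both. The choice of cells by mitotic genes favours that order too. Stmn1 also differed by class. Its CPM in cycling cells was 1.14 times that in other cells among neuroblasts, but 19.0 times among T cells, 23.4 times among microglia and 19.8 times among monocytes and macrophages. Stmn1 was thus near equal in cycling and other neuroblasts, and far apart in the other 3 classes.

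**Figure D1:**
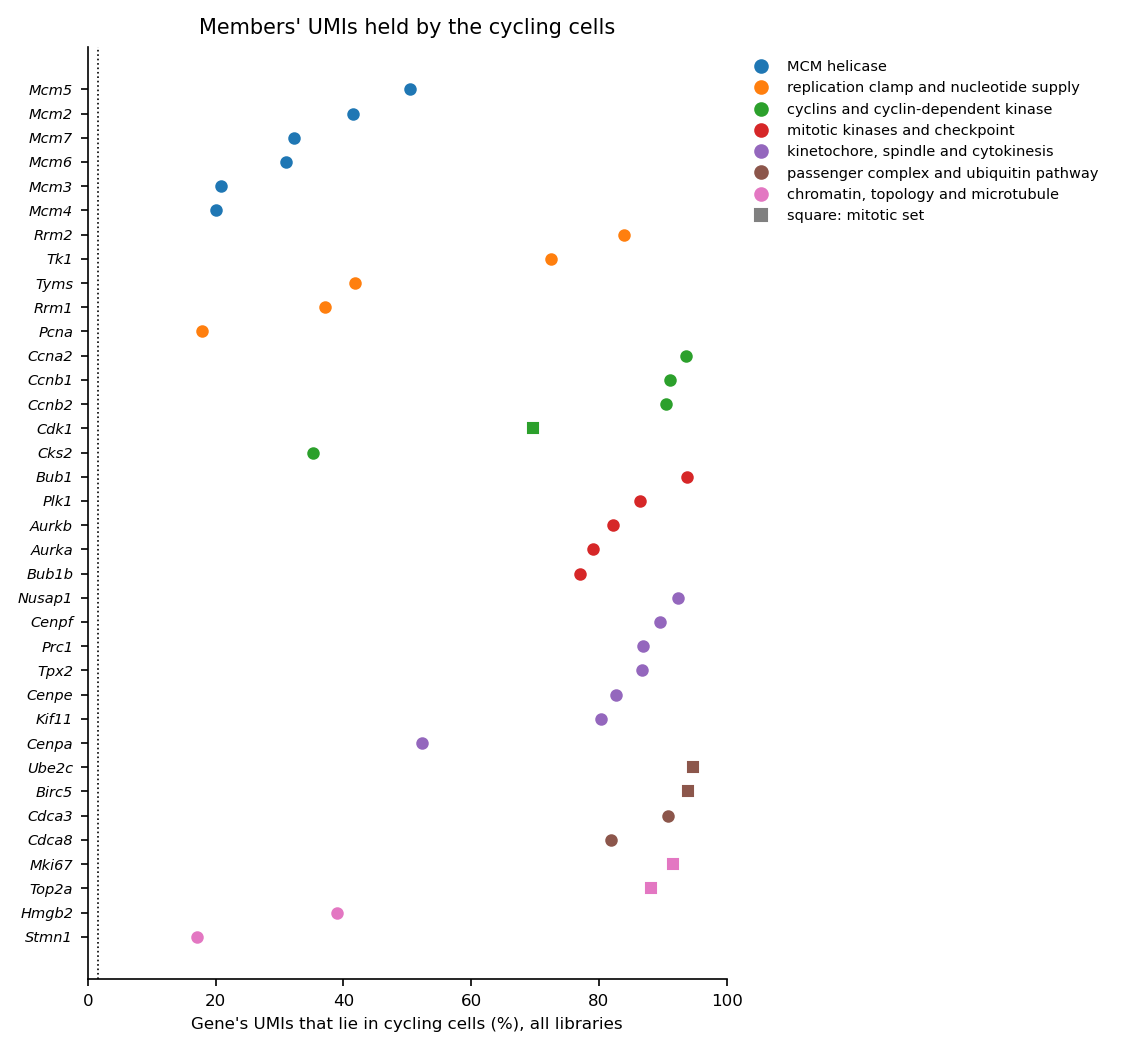
Share of each gene's UMIs (percent, horizontal axis) that lay in the 820 cycling cells of the 4 libraries together, by gene and coloured by role. The dotted line marks the share of cells that were cycling and squares mark the mitotic set; the cyclins lie between 90.5% and 93.7%, while Stmn1, Pcna, Mcm4 and Mcm3 lie between 17.1% and 20.9%.

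Cycling cells were 2.85% of kept cells in MAPS (373 of 13101, interval 2.57 to 3.15), 1.15% in UT EV (141 of 12301, 0.966 to 1.35), 1.24% with IL-1a/TNFa/C1q EV (176 of 14218, 1.06 to 1.43), and 0.956% with IL-4/C1q EV (130 of 13599, 0.799 to 1.13). The share in MAPS lay above that of each EV library, and the 3 EV libraries lay close to each other. The ratio to MAPS was 0.403 (0.329 to 0.490) for UT EV, 0.435 (0.361 to 0.522) for IL-1a/TNFa/C1q EV, and 0.336 (0.273 to 0.411) for IL-4/C1q EV, 3 values that share the MAPS library. MAPS cells were deeper, so every cell was also thinned to 1000 UMIs, which left out 790, 1233, 0 and 1259 shallower cells in the 4 libraries. The thinned shares were 1.38%, 0.488%, 0.563% and 0.511%, and the ratios to MAPS were 0.353, 0.407 and 0.370. Among the EV libraries, IL-1a/TNFa/C1q EV over UT EV was 1.08 (0.860 to 1.36), IL-4/C1q EV over UT EV was 0.834 (0.652 to 1.07) and IL-4/C1q EV over IL-1a/TNFa/C1q EV was 0.772 (0.611 to 0.974). That last ratio was 0.907 (0.642 to 1.28) after thinning, so at equal depth no pair of EV libraries was separated by its counting interval.

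**Figure D2:**
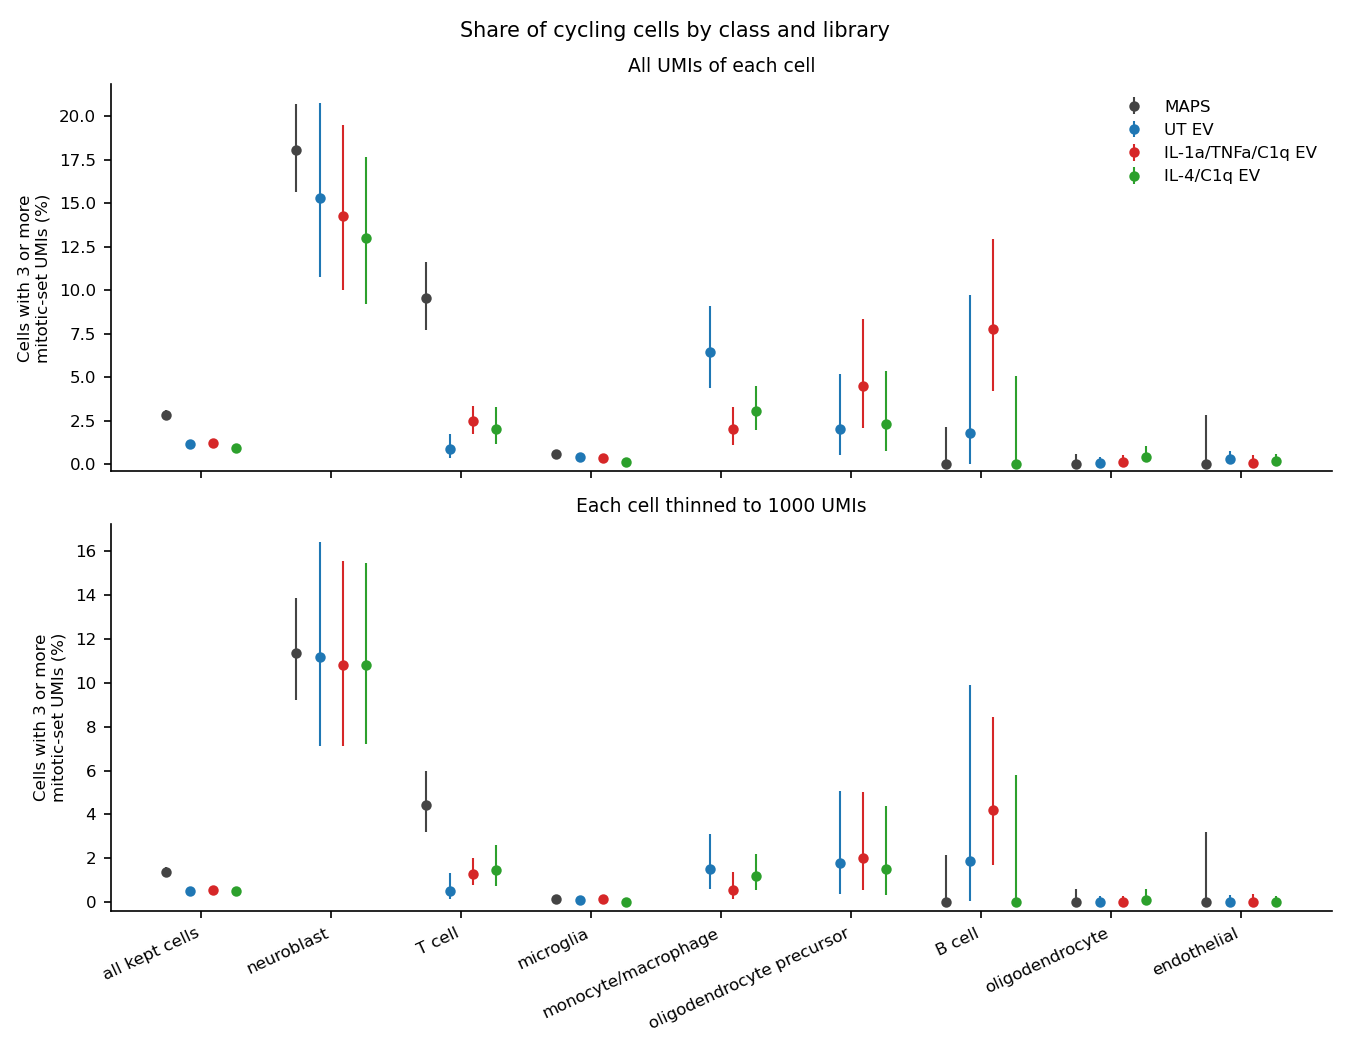
Percent of cells with 3 or more mitotic-set UMIs by class and library, with all UMIs of each cell (top) and with each cell thinned to 1000 UMIs (bottom). Points are shares and bars are Clopper-Pearson 95% intervals; classes with under 50 cells in a library have no point there, and neuroblasts reach 13% to 18.1% in the top panel and 10.8% to 11.4% in the bottom one.

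Which cells were cycling differed between the libraries. Neuroblasts made up 45.3% of the cycling cells of MAPS, 23.4% in UT EV, 18.8% with IL-1a/TNFa/C1q EV, and 26.9% with IL-4/C1q EV. T cells made up 23.3%, 4.96%, 21.6% and 12.3%. Microglia made up 10.7%, 17.0%, 12.5% and 5.38%. Monocytes and macrophages made up 0.804%, 21.3%, 8.52% and 18.5%. B cells reached 7.39% with IL-1a/TNFa/C1q EV and were under 1% elsewhere, and oligodendrocyte precursors were 2.84% to 5.11% of cycling cells in the EV libraries and 0 of 373 in MAPS. Between 18.0% and 21.3% stayed ungated. When the same cells were clustered without the 36 genes and their pathway, all 270 cycling neuroblasts, 141 of 148 cycling T cells, 72 of 93 microglia and 53 of 72 monocytes and macrophages fell into clusters of their gated class, and 18 of the latter fell into dendritic clusters.

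**Figure D3:**
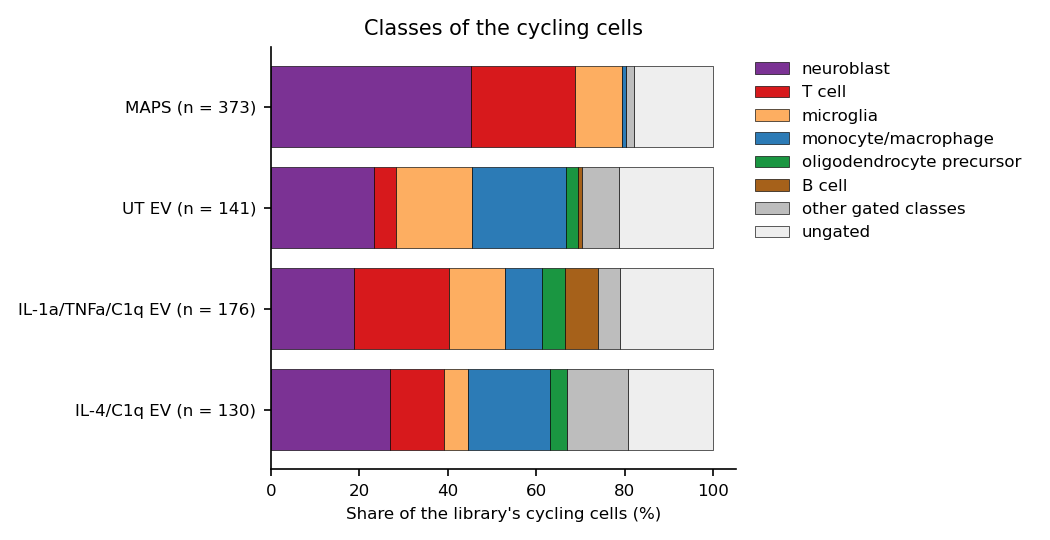
Percent of each library's cycling cells (horizontal axis) that fell into each marker-gated class, one bar per library with n cycling cells. Neuroblasts fill 45.3% of the MAPS bar and 18.8% to 26.9% of the EV bars.

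Mature oligodendrocytes and endothelial cells were taken as a background of the count, on the assumption, not tested here, that few of them divide. Oligodendrocytes held 0 of 635, 1 of 1341, 2 of 1321 and 4 of 970 cycling cells in the 4 libraries in order, at median depths of 7305, 4188, 3727 and 3924 UMIs. Endothelial cells held 0 of 129, 4 of 1295, 1 of 1044 and 3 of 1537, at medians of 3410, 1961, 2002.5 and 1942 UMIs. Cycling microglia, described below, were 0.571%, 0.442%, 0.348% and 0.121% of their class in the same order. In IL-4/C1q EV the microglial share lay below the shares of oligodendrocytes (0.412%, on 4 cells) and of endothelial cells (3 of 1537) in that library. In the other 3 libraries it lay above both. Of the oligodendrocytes of IL-4/C1q EV, 8 cells held all 54 Ube2c UMIs, and whether those cells divide was not tested. Cycling microglia detected a median of 12.5 to 17.0 of the other members per cell, also without a comparison at equal depth. The shares of neuroblasts and T cells were higher in value than both background classes in all 4 libraries. The replication genes have a higher background: 23.0% of MAPS oligodendrocytes (146 of 635) held 3 or more UMIs of these 11 genes, which is why that count is given only after thinning.

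Among classes with at least 50 cells, neuroblasts had the highest share of cycling cells in all 4 libraries. The share was 18.1% in MAPS (169 of 935), 15.3% in UT EV (33 of 216), 14.3% with IL-1a/TNFa/C1q EV (33 of 231), and 13% with IL-4/C1q EV (35 of 269). The intervals of all 4 overlapped, and after thinning the shares were 11.4%, 11.2%, 10.8% and 10.8%. Neuroblasts themselves were 7.14% of kept cells in MAPS against 1.62% to 1.98% in the EV libraries. Replication genes differed more than the share of cycling cells. The share of thinned neuroblasts with 3 or more replication-gene UMIs was 15.6% in MAPS, 5.58% in UT EV, 5.19% with IL-1a/TNFa/C1q EV, and 3.33% with IL-4/C1q EV. The ratios to MAPS were 0.358 (0.174 to 0.664), 0.333 (0.167 to 0.603) and 0.214 (0.0901 to 0.435), again against 1 shared library. This was not particular to neuroblasts. The same ratios, in the same order, were 0.0681, 0.0861 and 0.140 in T cells and 0.294, 0.183 and 0.275 in microglia. All of these had intervals that left out 1. The thinned replication share is not given here for the background classes.

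The mitotic set summed to 1646 CPM in MAPS neuroblasts and 1185, 1286 and 1247 CPM in the EV libraries, and that order turned around under TMM scaling, where the ratios to MAPS were 1.11, 1.28 and 1.15. By role, the MCM subunits summed to 773 CPM in MAPS neuroblasts and 244, 183 and 209 CPM in the 3 EV libraries in order, while the passenger and ubiquitin genes summed to 782 CPM and 1066, 1157 and 974 CPM. Mcm2, an MCM helicase subunit, had 469 UMIs in MAPS neuroblasts (112 CPM) and 18, 6 and 11 in the EV libraries (31.6, 10.9 and 17.1 CPM). Mki67 had 378 CPM in MAPS and 82.5, 43.5 and 114 CPM in the 3 EV libraries in order. Ube2c had 314 CPM in MAPS and 453, 610 and 454 CPM in the others. So Mcm2 and Mki67 were highest in MAPS and Ube2c lowest there. With the 3 EV libraries pooled, the level in MAPS over that in EV was 5.77 for Mcm5, 5.65 for Mcm2, 4.73 for Ccna2, 4.63 for Mki67, 4.33 for Mcm6, 4.13 for Rrm1 and 4.1 for Tk1. At the other end stood Stmn1 at 0.421, Tyms at 0.510, Birc5 at 0.607, Ube2c at 0.625, Cks2 at 0.758 and Cdk1 at 0.836. The median gene of the class was higher in MAPS by 1.0 on the log2 scale, and that shift moved with transcript length: it was 0.05 over the genes with the shortest transcripts, 1.19 over a middle group of the same size and 1.37 over the longest. Members in those 3 groups had medians of 0.68 (13 genes), 1.52 (15 genes) and 1.36 (8 genes), and over the 36 members length and log2 ratio had a Spearman rho of 0.25, given as a description. Part of the split was also seen in other classes. For MAPS over the pooled EV libraries, Mcm2 was 5.65 in T cells and 4.15 in microglia, and Tyms was 0.665 and 0.802. Birc5 and Ube2c were each 0.540 in microglia, but 1.51 and 2.21 in T cells. The part of length or of the library in the split was not tested.

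**Figure D4:**
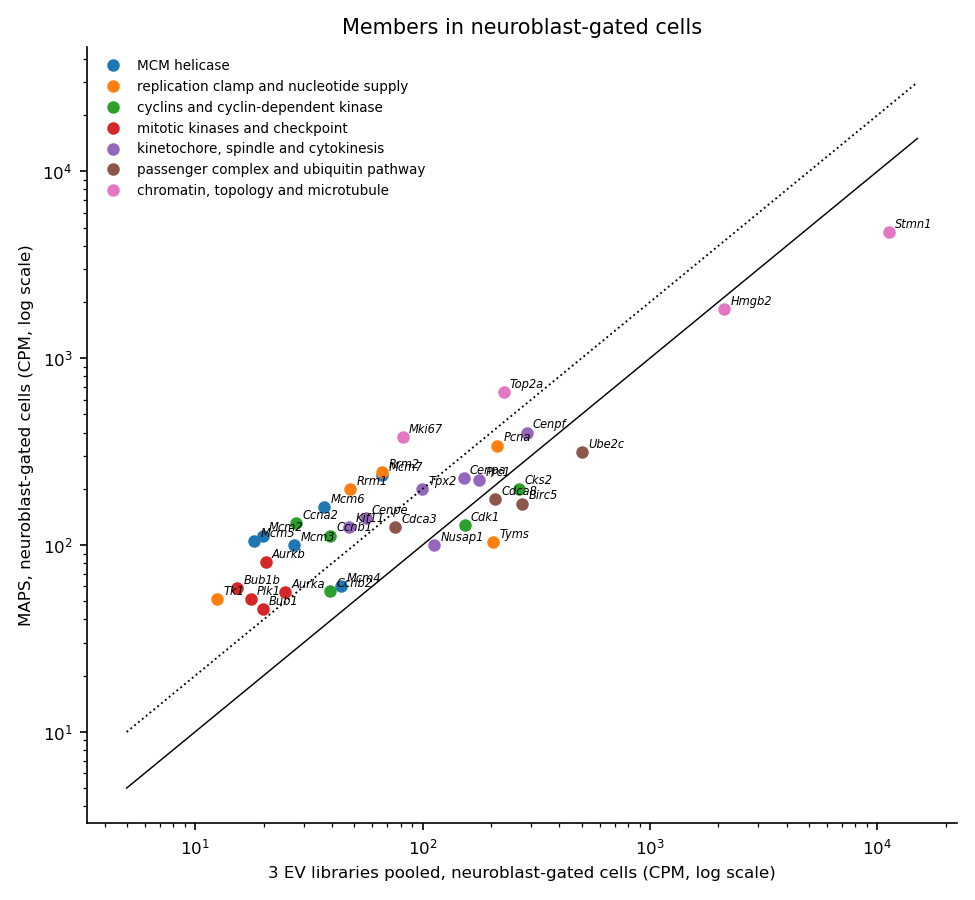
CPM of each of the 36 genes in neuroblast-gated cells, MAPS (vertical) against the 3 EV libraries pooled (horizontal), both axes on a log scale, coloured by role. The solid line marks equal levels and the dotted line the shift of the median gene; Mcm2, Mcm5, Ccna2 and Mki67 lie above the dotted line, and Stmn1, Tyms, Birc5 and Ube2c below the solid one.

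Among the EV libraries, single genes were compared by CPM of the class. A gene was counted as past the fold when its CPM ratio was 1.5-fold or more in either direction with an interval that left out 1, among genes with at least 20 UMIs in both libraries together. In neuroblasts, IL-4/C1q EV over UT EV had 35 of 36 genes measured, 0 higher and 2 lower, where 2.14% of all genes were higher and 1.56% lower. The 2 were Tpx2 (55 against 75 UMIs, ratio 0.651) and Nusap1 (61 against 83, ratio 0.652), both spindle genes. IL-1a/TNFa/C1q EV over UT EV had 1 of 33 higher and 5 lower (background 2.09% and 6.10%). Cenpa was the higher gene, at a ratio of 1.61 (1.17 to 2.24), and Mcm2, Tpx2, Prc1, Kif11 and Mki67 were the lower ones, at ratios from 0.344 to 0.660. For IL-4/C1q EV over IL-1a/TNFa/C1q EV there were 2 of 32 higher, Mki67 at 2.62 (73 against 24 UMIs) and Top2a at 1.51, and 0 lower (background 6.22% and 1.87%). Between 0 and 5 of the measured genes were past the fold in each direction. After thinning, Nusap1 (1.06) and Mcm2 (1.28) lay on the other side of 1.

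T cells differed between libraries in their share of cycling cells. Cycling T cells were 87 of 913 in MAPS (9.53%, 7.70 to 11.6), 7 of 811 in UT EV (0.863%, 0.348 to 1.77), 38 of 1540 with IL-1a/TNFa/C1q EV (2.47%, 1.75 to 3.37), then 16 of 778 with IL-4/C1q EV (2.06%, 1.18 to 3.32). MAPS was highest and UT EV lowest. Against MAPS the ratios were 0.0906 (0.0354 to 0.195), 0.259 (0.172 to 0.383) and 0.216 (0.118 to 0.371), and thinning to 1000 UMIs gave shares of 4.43%, 0.513%, 1.30% and 1.45%. IL-1a/TNFa/C1q EV over UT EV was 2.86 (1.26 to 7.59), and 2.53 (0.847 to 10.2) after thinning. IL-4/C1q EV over UT EV was 2.38 (0.927 to 6.85), and IL-4/C1q EV over IL-1a/TNFa/C1q EV was 0.833 (0.434 to 1.53). UT EV rests on 7 cycling T cells.

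In T cells the mitotic genes were lowest in UT EV, and the MCM subunits differed little among the EV libraries. The mitotic set defines a cycling cell, so its sum is not separate from the share of cycling T cells. It summed to 641 CPM in MAPS, 89.0 in UT EV, 239 with IL-1a/TNFa/C1q EV, and 241 with IL-4/C1q EV. The ratio to UT EV was 2.69 (2.26 to 3.22) for IL-1a/TNFa/C1q EV, and 2.71 (2.24 to 3.28) for IL-4/C1q EV, and 4.07 and 4.32 with classes taken from clusters. The MCM subunits together were 340, 104, 119 and 104 CPM, with a ratio to UT EV of 1.14 (0.957 to 1.37) and 0.992 (0.801 to 1.23). In IL-1a/TNFa/C1q EV over UT EV, 14 of 33 measured genes were past the fold higher and 1 lower, against 2.32% and 6.98% of all genes. Ube2c had 141, 13.2, 79.4 and 86.7 CPM in the 4 libraries in order, lowest in UT EV. It had 262 against 23 UMIs (ratio 6.02), Cdca3 61 against 3 (10.7, 3.51 to 53.5), Birc5 242 against 33 (3.87), Kif11 39 against 5 (4.12) and Ccnb2 42 against 7 (3.17). The others higher were Mcm3, Tyms, Ccna2, Cdk1, Cenpf, Tpx2, Cdca8, Mki67 and Stmn1, and Rrm1 was lower at 0.568 (0.361 to 0.896). Mcm3 turned to 0.955 after thinning. In IL-4/C1q EV over UT EV, 10 of 27 were higher and 0 lower, against 2.48% and 3.94%: Ccnb2, Cdk1, Cks2, Cenpe, Cenpf, Birc5, Cdca8, Cdca3, Ube2c and Mki67. The comparison of IL-4/C1q EV over IL-1a/TNFa/C1q EV had 0 of 33 higher and 2 lower (5.33% and 2.70%), namely Mcm2 (8 against 38 UMIs, 0.421) and Tyms (0.621). The median member was higher than in UT EV by 0.80 (log2) with IL-1a/TNFa/C1q EV, and by 0.43 with IL-4/C1q EV, where the median of all genes was -0.12 and -0.05. Both comparisons share UT EV. Against MAPS the median member was at -2.34, -1.51 and -1.67 in the 3 EV libraries in order, and the median gene at -0.84, -1.02 and -0.92.

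The cycling T cells of MAPS mostly held RNA of the CD8 coreceptor. Cd8a was detected in 63 of 87 (72.4%, 61.8 to 81.5) against 45.3% of the other T cells of that library, and in 1 of 7, 5 of 38 and 1 of 16 cycling T cells of the 3 EV libraries in order, where 8.21%, 9.85% and 15% of other T cells held it. Cd4 was detected in 20 of 87, 0 of 7, 8 of 38 and 7 of 16 cycling T cells, and in 31.1%, 11.2%, 11.8% and 12.9% of the others. Foxp3, the factor of regulatory T cells, was detected in 4 of 16 cycling T cells of IL-4/C1q EV (25%, 7.27 to 52.4) against 2.89% of the others, in 2 of 87 in MAPS, 0 of 7 in UT EV and 2 of 38 with IL-1a/TNFa/C1q EV. Trdc, the delta chain constant gene of gamma-delta T cells, was detected in 1 of 87 cycling T cells of MAPS and in 0 of 7, 0 of 38 and 0 of 16 in the EV libraries, where 16.8%, 12.6% and 16.3% of other T cells held it. The subset genes were picked after the shares of cycling T cells were seen, and cycling cells were deeper (8517 against 4103.5 median UMIs in MAPS). The part of depth in these rates was not tested.

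Few microglia reached the count of a cycling cell. Cycling microglia were 40 of 7003 in MAPS (0.571%, 0.408 to 0.777), 24 of 5427 in UT EV (0.442%, 0.284 to 0.657), 22 of 6327 with IL-1a/TNFa/C1q EV (0.348%, 0.218 to 0.526), then 7 of 5773 with IL-4/C1q EV (0.121%, 0.0488 to 0.250). IL-4/C1q EV was lowest. Its ratio was 0.274 (0.0998 to 0.656) to UT EV and 0.349 (0.126 to 0.845) to IL-1a/TNFa/C1q EV, while IL-1a/TNFa/C1q EV over UT EV was 0.786 (0.420 to 1.46). Thinning left 11, 5, 8 and 1 cycling microglia, too few to separate the libraries (IL-4/C1q EV over UT EV 0.187, 0.00396 to 1.67). With 2 or more mitotic-set UMIs as the threshold, IL-4/C1q EV had 19 cells against 34 in UT EV (0.525, 0.283 to 0.947), and its ratio to IL-1a/TNFa/C1q EV was 0.612 (0.330 to 1.10). Of the 93 cycling microglia, 7 fell into neuroblast clusters and 7 into monocyte and macrophage clusters.

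The gene sums had the same order among the EV libraries. The mitotic set holds the same 5 genes that define a cycling cell, so its sum is not separate from the share of cycling cells. The mitotic set in microglia summed to 35.3 CPM in MAPS, 39.2 in UT EV, 32.0 with IL-1a/TNFa/C1q EV, and 19.6 with IL-4/C1q EV. IL-4/C1q EV over UT EV was 0.498 (0.437 to 0.568), over IL-1a/TNFa/C1q EV 0.611 (0.533 to 0.699), and IL-1a/TNFa/C1q EV over UT EV 0.816 (0.732 to 0.909). In IL-4/C1q EV over UT EV, 0 of 34 measured genes were past the fold higher and 14 lower, against 2.29% and 3.20% of all genes. Ube2c had 189, 216, 207 and 43 UMIs in the 4 libraries in order, lowest in the last. For IL-4/C1q EV against UT EV it had 43 UMIs against 216 (0.216, 0.152 to 0.301), Birc5 53 against 179 (0.321), Cdca3 11 against 62 (0.193), Mki67 20 against 60 (0.362) and Cenpf 58 against 141 (0.446). None of these is a replication gene, but Tyms and Tk1 among the other lower genes are. Aurka had 3 UMIs against 19 (0.171, 0.0325 to 0.582). The others lower were Tyms, Tk1, Ccnb2, Tpx2, Nusap1, Prc1, Cdca8 and Stmn1, of which Tpx2 turned to 1.87 after thinning. The MCM subunits were not among them: together they had 30.5 CPM in UT EV and 28.8 in IL-4/C1q EV, a ratio of 0.945 (0.835 to 1.07). Hmgb2 had 211 CPM in UT EV and 233 CPM in IL-4/C1q EV. IL-4/C1q EV over IL-1a/TNFa/C1q EV had 0 of 34 higher and 9 lower (5.86% and 2.44%), with Ube2c at 0.240, Aurka at 0.183, Cdca3 at 0.327, Tpx2 at 0.363 and Birc5 at 0.383, the others being Ccnb2, Cenpf, Nusap1 and Cdca8. IL-1a/TNFa/C1q EV over UT EV had 0 of 35 higher and 4 lower, Prc1, Cdca3, Mki67 and Top2a at 0.531 to 0.637 (1.80% and 5.42%), of which Cdca3 and Top2a turned to 1.32 and 1.14 after thinning. For IL-4/C1q EV over IL-1a/TNFa/C1q EV the same held for Ccnb2 (2.26) and Cenpf (1.28). The median member of IL-4/C1q EV over UT EV was -0.63 (log2) and the median gene -0.04. With cycling cells left out, that comparison had 23 genes measured, 0 higher and 2 lower. A fall there follows from the selection, because 5 of the genes define the cells.

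Among the EV libraries, monocytes and macrophages had their highest share of cycling cells in UT EV. Cycling cells were 30 of 464 in UT EV (6.47%, 4.40 to 9.10), 15 of 742 with IL-1a/TNFa/C1q EV (2.02%, 1.14 to 3.31), then 24 of 783 with IL-4/C1q EV (3.07%, 1.97 to 4.53). MAPS held 46 cells of the class, 3 of them cycling, and is not described further. IL-1a/TNFa/C1q EV over UT EV was 0.313 (0.156 to 0.60), IL-4/C1q EV over UT EV 0.474 (0.265 to 0.839) and IL-4/C1q EV over IL-1a/TNFa/C1q EV 1.52 (0.763 to 3.11). After thinning the first was 0.354 (0.0760 to 1.39) and the second 0.768 (0.255 to 2.43), on 4 to 9 cycling cells. With classes taken from clusters they were 0.576 (0.335 to 0.978) and 0.639 (0.389 to 1.05). These ratios leave out ungated cells. Of the ungated cells in which markers of this class led, 7 of 283 in UT EV were cycling. The counts were 14 of 440 with IL-1a/TNFa/C1q EV, and 5 of 361 with IL-4/C1q EV.

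The mitotic set, again not separate from the share of cycling cells, summed in this class to 168 CPM in UT EV, 73.3 with IL-1a/TNFa/C1q EV, and 146 with IL-4/C1q EV. Over UT EV the ratios were 0.436 (0.379 to 0.501) and 0.869 (0.776 to 0.975), and IL-4/C1q EV over IL-1a/TNFa/C1q EV was 2.0 (1.74 to 2.29). Classes taken from clusters gave 0.694 for the first and 1.32 for the last, and the stricter gate gave 0.560 for the second and 1.35 for the last. In IL-1a/TNFa/C1q EV over UT EV, 0 of 32 genes were past the fold higher and 19 lower, against 2.61% and 8.86% of all genes. Tpx2, which activates Aurka at the spindle, had 7 against 37 UMIs (0.155), Nusap1 6 against 22 (0.224), Ccnb2 24 against 64 (0.307), Birc5 111 against 235 (0.387) and Ube2c 99 against 184 (0.441). Replication genes were among the lower ones, with Pcna at 0.617, Tyms at 0.581, Mcm6 at 0.557 and Tk1 at 0.356. The rest were Cdk1, Bub1b, Cenpe, Cenpf, Prc1, Cdca8, Cdca3, Mki67, Top2a and Stmn1. For IL-4/C1q EV over IL-1a/TNFa/C1q EV there were 18 of 34 higher and 0 lower (10.9% and 1.83%), with Tpx2 at 5.81, Nusap1 at 4.47, Prc1 at 3.03 and Top2a at 2.95. After thinning Tpx2 was 0.642 in that comparison, and Rrm2, Kif11 and Cdca8 were each 0.964, while Cdk1 was 1.24 with IL-1a/TNFa/C1q EV over UT EV. The comparison of IL-4/C1q EV over UT EV had 0 of 36 higher and 1 lower, Ccnb2 at 0.649 (6.70% and 4.47%).

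**Figure D5:**
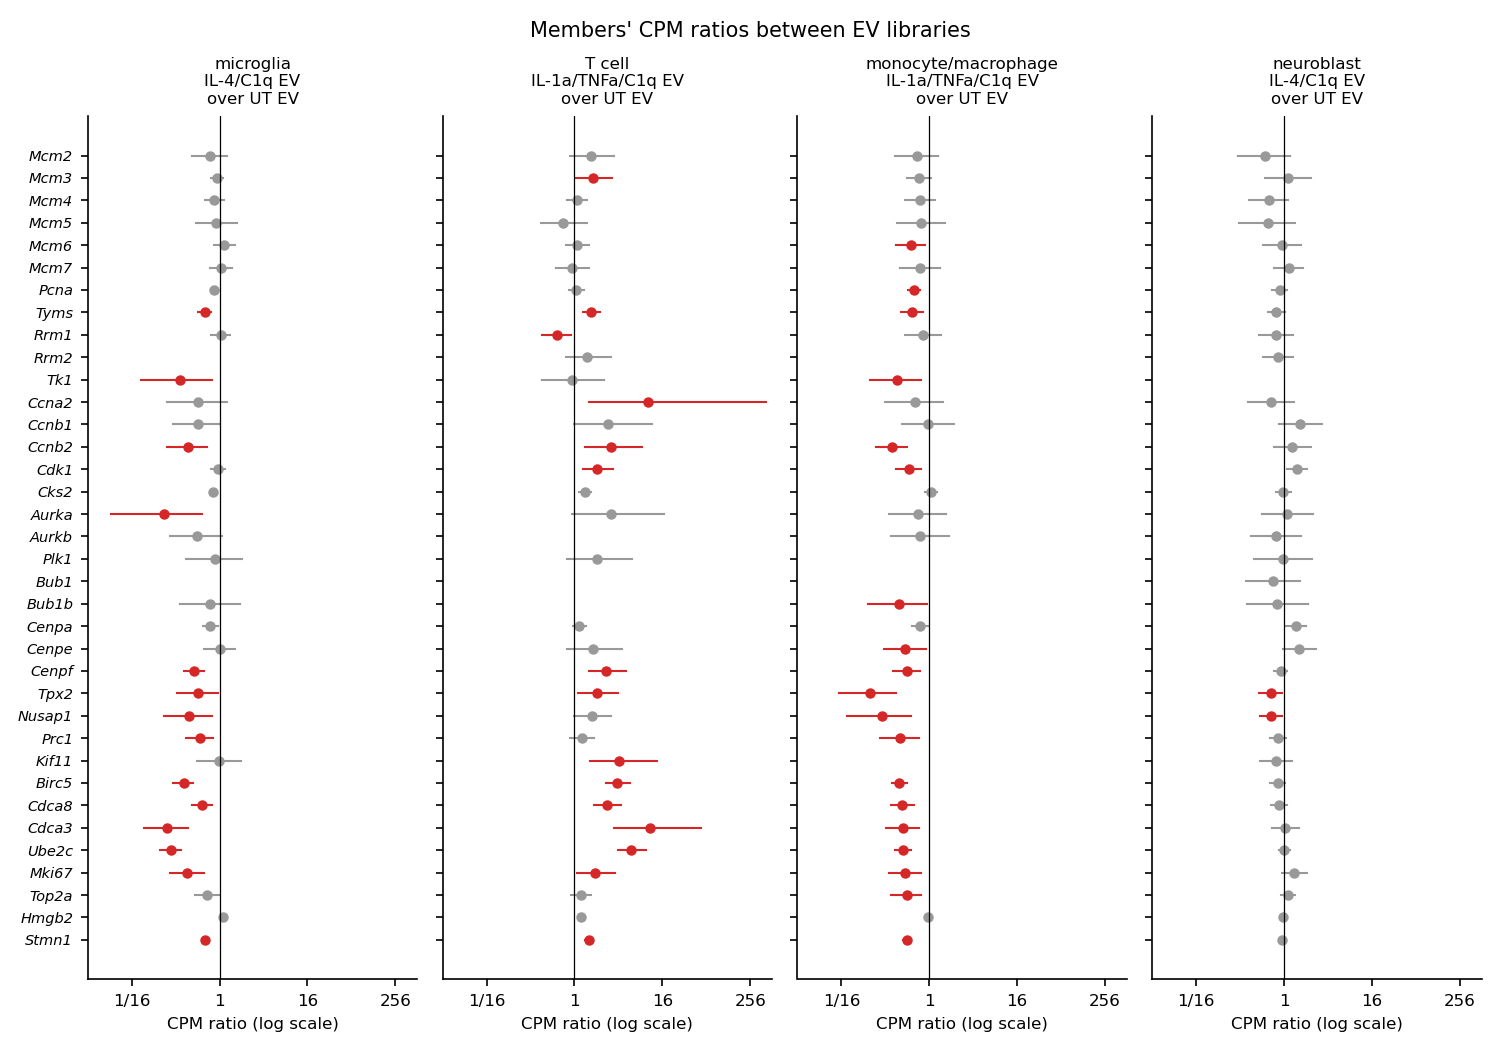
CPM ratio of each of the 36 genes (log scale) in 4 classes: IL-4/C1q EV over UT EV in microglia and neuroblasts, IL-1a/TNFa/C1q EV over UT EV in T cells and in monocytes and macrophages. Points are ratios with 95% conditional intervals, red where the ratio is past 1.5-fold with an interval that leaves out 1, and absent where under 20 UMIs were counted; 14 genes are red on the low side in microglia, 14 on the high side in T cells and 19 on the low side in monocytes and macrophages.

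B cells and oligodendrocyte precursors held few cycling cells. B cells had 0 of 171 in MAPS, which allows a share of up to 1.75% (3 counts of the total, the floor used for a count of 0), 1 of 55 in UT EV, 13 of 167 with IL-1a/TNFa/C1q EV (7.78%, 4.21 to 12.9), then 0 of 71 with IL-4/C1q EV. In that class Ube2c had 190 UMIs with IL-1a/TNFa/C1q EV and 0 in each other library, Birc5 had 110 against 0, 3 and 0 in MAPS, UT EV and IL-4/C1q EV, and Tyms had 42 against 0, 0 and 1. These counts lie in 1 library, which held 13 of the 14 cycling B cells. Oligodendrocyte precursors had 4 of 195 in UT EV, 9 of 200 with IL-1a/TNFa/C1q EV (4.50%), then 5 of 215 with IL-4/C1q EV (ratios to UT EV 2.19, 0.612 to 9.75, and 1.13, 0.244 to 5.71), while MAPS had 24 cells of the class. Oligodendrocytes, which had 4 cycling cells in IL-4/C1q EV, had 10 of 19 measured genes past the fold higher in IL-4/C1q EV over UT EV (2.94% of all genes), led by Top2a (22 against 4 UMIs, 7.85), Tpx2 (15 against 5, 4.28), Birc5 (55 against 25, 3.14) and Ube2c (54 against 26, 2.96). The part of these 4 cells and of free RNA in the result was not tested.

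Over all kept cells few of the genes differed among the EV libraries. IL-4/C1q EV over UT EV had 0 of 36 genes past the fold higher and 1 lower (6.75% and 2.87% of all genes), the 1 being Tk1 with 53 against 87 UMIs (0.60). IL-1a/TNFa/C1q EV over UT EV had 0 higher and 0 lower of 36 (4.76% and 7.40%), and IL-4/C1q EV over IL-1a/TNFa/C1q EV also 0 and 0 (10.8% and 2.62%).

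A further list of 44 genes of the pathway, holding the G1 cyclins, E2F and pocket proteins, kinase inhibitors, phosphatases and licensing factors, was read in the same way. In cycling cells over other cells, pooled over classes and libraries, the CPM ratio was 246 for the phosphatase Cdc25c, 231 for Pclaf, a partner of Pcna, and 138 for Cdc20, the activator of the anaphase-promoting complex. Foxm1 stood at 76.0, Uhrf1 at 73.6 and E2f8 at 71.5. The cyclin Ccnd2 stood at 14.9 and Ccnd1 at 1.12. The inhibitors went from Cdkn2c at 5.73 to Cdkn1a at 0.872, Cdkn1c at 0.336 and Cdkn2b at 0.102. Cdkn1b stood at 1.99. The pooled ratios mix class composition with cycling, and within classes they differed. Cdkn1b was 1.09 in neuroblasts, 0.604 in T cells, 0.768 in microglia, 0.901 in monocytes and macrophages and 0.116 (0.00291 to 0.660) in B cells, on 1 UMI in cycling B cells. Ccnd2 was 1.44, 0.671, 7.32, 1.96 and 0.914 in the same classes. Pclaf was 17.1, 138, 217, 131 and 268, above 1 in each of them.

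Between libraries, the counts past the fold were as follows. In microglia, IL-4/C1q EV over UT EV had 1 of 35 higher, Ccnd1 at 1.54, and 3 lower, Cdc20 (0.407), Gins2 (0.571) and Pclaf (0.578), against 2.29% and 3.20% of all genes. IL-1a/TNFa/C1q EV over UT EV had 0 higher and 1 lower of 35, Cdk2 at 0.636 (1.80% and 5.42%). For IL-4/C1q EV over IL-1a/TNFa/C1q EV there were 3 higher and 3 lower of 33, led by Cdc20 at 0.306, Gins2 at 0.526, Cdkn2b at 1.78 and Ccnd1 at 1.77 (5.86% and 2.44%). In T cells, IL-1a/TNFa/C1q EV over UT EV had 1 of 29 higher, Pclaf at 1.83, and 0 lower (2.32% and 6.98%), and IL-4/C1q EV over UT EV had 1 higher, Cdkn2c at 1.52, and 1 lower, Hells at 0.536, of 24 (2.48% and 3.94%). The comparison of IL-4/C1q EV over IL-1a/TNFa/C1q EV had 1 higher, Ccnd2 at 1.75, and 1 lower, Hells at 0.444, of 29 (5.33% and 2.70%). In monocytes and macrophages the inhibitor Cdkn1c had 92 UMIs in UT EV, 11 with IL-1a/TNFa/C1q EV (0.0980, 0.0473 to 0.184), and 8 with IL-4/C1q EV (0.0708, 0.0297 to 0.145). Both comparisons share UT EV. With IL-1a/TNFa/C1q EV over UT EV, 0 of 29 genes were higher and 9 lower, against 2.61% and 8.86% of all genes. With IL-4/C1q EV over UT EV, 2 of 31 were higher and 5 lower, against 6.70% and 4.47%. IL-4/C1q EV over IL-1a/TNFa/C1q EV had 4 of 29 higher, among them Rbl1 at 5.13, and 1 lower, Myc at 0.425 (10.9% and 1.83%). In neuroblasts the inhibitor Cdkn1a had 31 UMIs in UT EV, 60 with IL-1a/TNFa/C1q EV (2.0, 1.27 to 3.19), and 24 with IL-4/C1q EV, whose ratio to IL-1a/TNFa/C1q EV was 0.344 (0.205 to 0.561). In this class IL-4/C1q EV over UT EV had 0 higher and 0 lower of 22 (2.14% and 1.56%), IL-1a/TNFa/C1q EV over UT EV 1 and 1 of 20 (2.09% and 6.10%), and IL-4/C1q EV over IL-1a/TNFa/C1q EV 3 and 2 of 20 (6.22% and 1.87%). Over all kept cells the same comparisons had 0 and 2, 1 and 2, and 3 and 1 of 44 genes higher and lower (6.75% and 2.87%, 4.76% and 7.40%, and 10.8% and 2.62% of all genes).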

How the data were processed

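Single-cell RNA was read from 4 libraries, 1 per group. The deposited files hold UMI counts per gene and cell barcode, filtered to cells by the authors, per the file headers. Those headers name Cell Ranger 8.0.1, while Cell Ranger 7.0.0, Seurat 4.1.0, bcl2fastq 5.0.1 and build GRCm39 are listed per the submitters' processing notes. Barcodes under 500 UMIs or 300 genes, or above 20.0% mitochondrial UMIs, were dropped. Doublets called by scrublet (scanpy 1.11.5) were removed, 5.29%, 3.64%, 5.07% and 5.07% of cells in the 4 libraries in order. A cell took a class when it held at least 3 UMIs of that class's markers from at least 2 genes and at least 2 times those of every other class (20 classes, 151 markers). UMIs were summed per library and class and divided by the class total (CPM). A gene was past the fold at a ratio of 1.5-fold with an interval that left out 1 and at least 20 UMIs. All 36 members could be named, and of the pathway list at most the 4 genes with the largest log2 ratio per comparison; others of that list, named where few passed, were chosen after their values were seen. The 6 classes with the most cycling cells were described in full. Shares were repeated after thinning cells to 1000 UMIs. The members and lists were chosen with earlier results of these data known. Only the fold call and the counting intervals were tested on simulated data, drawn as independent counts. Gating, thinning, doublet removal and clustering were not simulated. Tools were R 4.3.3 with edgeR 4.0.16 (TMM factors only) and Python 3.11.15 with leidenalg 0.10.2, pandas 2.3.3, scipy 1.17.1 and numpy 2.4.6. Alternatives were TMM scaling, a stricter gate, classes from clusters, other thresholds and folds, and thinning.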

Additional observations from a re-analysis of the deposited data

Results flagged for a closer look

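The share of cycling cells in IL-1a/TNFa/C1q EV over UT EV lay on opposite sides of 1 in T cells and in monocytes and macrophages. It was 2.86 (1.26 to 7.59) in T cells, on 38 and 7 cycling cells. It was 0.313 (0.156 to 0.60) in monocytes and macrophages, on 15 and 30 cycling cells. After thinning to 1000 UMIs both ratios stayed on their side of 1, but both intervals included 1. With classes taken from clusters the ratio in monocytes and macrophages lay closer to 1. Ungated cells led by markers of that class, left out of the ratio, held 14 and 7 further cycling cells in these libraries. With 1 library in each group the difference between the classes was not tested.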

How the results depend on the processing

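No paired analysis was possible because each group is 1 library. Of 204 alternatives for 27 ratios of cycling shares, 201 stayed within the counting interval of the reported ratio, which is wide for small classes. Several crossed 1 after thinning: 1.05 for IL-4/C1q EV over UT EV in all kept cells, 1.12 for IL-4/C1q EV over IL-1a/TNFa/C1q EV in T cells and 1.32 for IL-1a/TNFa/C1q EV over UT EV in microglia. Others moved by over 1.5 times, such as 0.525 with 2 or more UMIs in microglia and 0.768 after thinning in monocytes and macrophages (both IL-4/C1q EV over UT EV), and 0.576 with cluster classes in the latter (IL-1a/TNFa/C1q EV over UT EV). With Birc5, Ube2c and Cdk1 alone, chosen after seeing the data, the ratios to MAPS over all kept cells were 0.513, 0.554 and 0.421 (the 3 EV libraries in order). For mitotic-set CPM, the 3 neuroblast ratios to MAPS, in that order, were 1.11, 1.28 and 1.15 with TMM scaling and 0.862, 0.975 and 0.959 after thinning, so their direction depends on the scaling. Thinning also gave, for IL-4/C1q EV over UT EV, 1.85 in T cells, 0.707 in microglia and 0.724 in monocytes and macrophages, for IL-1a/TNFa/C1q EV over UT EV 2.02 in T cells and 0.370 in monocytes and macrophages, and for IL-4/C1q EV over IL-1a/TNFa/C1q EV 0.802 in microglia. The stricter gate gave, for IL-4/C1q EV over UT EV, 1.19 in neuroblasts, 3.41 in T cells, 0.395 in microglia and 0.560 in monocytes and macrophages, for IL-1a/TNFa/C1q EV over UT EV 3.31 in T cells and 0.675 in microglia, for IL-4/C1q EV over IL-1a/TNFa/C1q EV 1.16 in neuroblasts and 1.35 in monocytes and macrophages, and 0.852 for neuroblasts of IL-4/C1q EV over MAPS. Cluster classes gave 4.32 in T cells for IL-4/C1q EV over UT EV, then 4.07 in T cells for IL-1a/TNFa/C1q EV over UT EV, with 0.648 in microglia and 0.694 in monocytes and macrophages for the latter, and 0.870, 0.721 and 1.32 in neuroblasts, microglia, and monocytes and macrophages for IL-4/C1q EV over IL-1a/TNFa/C1q EV. Counts of members past the fold also moved. At 2-fold, lower genes were 2 (neuroblast, IL-1a/TNFa/C1q EV over UT EV), 9 (microglia, IL-4/C1q EV over UT EV) and 0 (microglia, IL-1a/TNFa/C1q EV over UT EV). TMM gave 3 and 2 for the first and last of these, and at least 50 UMIs gave 6 higher T cell genes for IL-4/C1q EV over UT EV. Without cycling cells, a setting also chosen after seeing the data and one where a fall follows from the selection because 5 of these genes define the cells, the counts were 0 in neuroblasts (IL-1a/TNFa/C1q EV over UT EV), 0 and 0 in T cells (each over UT EV, IL-4/C1q EV first), 2, 1 and 2 in microglia (IL-4/C1q EV over UT EV, IL-1a/TNFa/C1q EV over UT EV, IL-4/C1q EV over IL-1a/TNFa/C1q EV), and 0 and 0 in monocytes and macrophages (IL-1a/TNFa/C1q EV over UT EV, IL-4/C1q EV over IL-1a/TNFa/C1q EV). Among 102 single-gene ratios, 15 of 705 alternatives reversed. After thinning these were Nusap1 1.06 (neuroblast, IL-4/C1q EV over UT EV), Mcm2 1.28 (neuroblast) and Mcm3 0.955 (T cell, both IL-1a/TNFa/C1q EV over UT EV), Tpx2 1.87 (microglia, IL-4/C1q EV over UT EV), Cdca3 1.32 and Top2a 1.14 (microglia, IL-1a/TNFa/C1q EV over UT EV), Ccnb2 2.26 and Cenpf 1.28 (microglia, IL-4/C1q EV over IL-1a/TNFa/C1q EV), Cdk1 1.24 (monocytes and macrophages, IL-1a/TNFa/C1q EV over UT EV), and Rrm2 0.964, Tpx2 0.642, Kif11 0.964 and Cdca8 0.964 (the same class, IL-4/C1q EV over IL-1a/TNFa/C1q EV). Cenpf in IL-4/C1q EV over IL-1a/TNFa/C1q EV was 1.22 in microglia with cluster classes and 0.801 in monocytes and macrophages with the stricter gate. The cause was not tested. Thinned gene sums rest on few UMIs, which limits their precision.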
